A study of Mus musculus with 8 samples.

Results

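The genes described here are 9 members of the mouse PARP family (Parp1, Parp2, Parp3, Parp4, Parp6, Parp8, Parp10, Parp11 and Parp16) and Parg, 10 of the 52459 genes in the deposited tables. They were taken by symbol from a fixed list of names, and the rule uses no measured value. All 10 symbols were found. The study's title concerns oxidized 5-methylcytosine and synthetic lethality with PARP inhibitors in acute myeloid leukaemia, so these genes encode the drug targets of its question and the enzyme that opposes them. Messenger RNA was sequenced from leukaemic cells of 8 mice, each a separate animal in the labels.

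The leukaemia came from cKit+ marrow cells of C57BL/6J mice that were transduced with a retrovirus carrying AE9a, a short form of the AML1-ETO fusion, and a hairpin to Tet2 that is switched on by doxycycline (genotype label RTA shTet2). All 8 libraries carry both, and all were made from AE9a+ cells of the spleen of moribund mice. Each lethally irradiated C57BL/6J recipient, 6 to 8 weeks old, received 50000 AE9a+ cells with 500000 supporting marrow cells. Secondary recipients fell into 3 groups. In the restored group doxycycline was withdrawn, so that Tet2 could be expressed again, and PBS was given (mice 21 and 23). In the ascorbate group doxycycline was kept and ascorbate was given (mice 28 and 30). In the PBS knockdown group doxycycline was kept and PBS was given (mice 16, 17 and 19). The remaining library is a primary recipient on doxycycline (mouse 12), which has no replicate and enters no test. Restoration of Tet2 and absence of doxycycline cannot be told apart in this design. The labels do not state how many independent transductions the leukaemias came from, so p-values measure the spread between these mice.

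PARP enzymes transfer ADP-ribose from NAD+ to proteins and nucleic acids. PARP1 and PARP2 bind DNA breaks and build chains of poly(ADP-ribose) that recruit repair factors, and PARP inhibitors used in the clinic block and trap them on DNA. Most other family members attach a lone ADP-ribose and act in the cytoplasm or at membranes, and PARG takes the chains apart.

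Libraries held 18136978 to 34197877 counts, and mitochondrial genes took 5.16% to 17.1% of them, with the highest shares in mouse 28 (17.1%) and mouse 23 (14.5%). Markers of the labelled cells were uneven. Kit (54.4 to 206 CPM, counts scaled to 1000000 per library with TMM factors) and Runx1t1, the gene of the ETO part of AE9a (101 to 304 CPM), were present in all 8 libraries. Cd34, Mpo and Ptprc, the gene of CD45, stayed at or below 19.8, 6.33 and 9.72 CPM. Erythroid genes summed to 3761 to 11865 CPM over 6 genes, and mast cell and basophil genes to 681 and 741 CPM in restored mice, 369 and 667 CPM in ascorbate mice, 934 CPM in the primary mouse and 244 to 350 CPM in PBS knockdown mice. B cell, T cell and stromal lists summed to at most 8.03 CPM, and Col3a1 had 0 counts throughout. In bulk RNA, fewer cells of a type and less RNA per cell cannot be told apart.

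Tet2, the target of the hairpin, was measured at 14.1 and 23.1 CPM in restored mice 21 and 23, 13.8 and 11.7 CPM in ascorbate mice 28 and 30, 9.26 CPM in the primary mouse, and 12.6, 12.8 and 13.4 CPM in PBS knockdown mice 16, 17 and 19. Mouse 23 lay above every other library, while the 95% counting interval of mouse 21 (12.6 to 15.7 CPM) overlapped those of all 3 PBS knockdown mice. Restored over PBS knockdown, Tet2 had a log2 fold change of 0.52 (SE 0.24, edgeR adjusted p 0.181). With 1 restored library left, this was 0.84 without mouse 21 and 0.12 without mouse 23. Over all alternative settings the log2 fold change of Tet2 ran from 0.12 to 0.97. Long genes counted relatively low in mouse 21 (rho with gene length −0.46, the lowest of all libraries), and Tet2 counts rest on 17076 bases. The part of gene length in the Tet2 level of mouse 21 was not tested. Mouse 21 is called restored only as its label gives it, and the members' results are given below with and without it where they change.

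Promoter windows are shown for Parp1 and Parg, the main drug target and its opposing enzyme, and for Parp11, the member with the largest difference between groups. TET enzymes act on methylated cytosine, mostly at CpG, so CpG dinucleotides are in capitals. The windows are RefSeq's on GRCm38.p6, run 5′ to 3′ on the gene's strand from 250 bases before to 50 bases after an annotated start, and lie at chr1:180568641-180568940 (+) for Parp1, chr14:32201699-32201998 (+) for Parg, and chr6:127446590-127446889 (+) and chr6:127453377-127453676 (+) for the upstream and downstream starts of Parp11.
Parp1: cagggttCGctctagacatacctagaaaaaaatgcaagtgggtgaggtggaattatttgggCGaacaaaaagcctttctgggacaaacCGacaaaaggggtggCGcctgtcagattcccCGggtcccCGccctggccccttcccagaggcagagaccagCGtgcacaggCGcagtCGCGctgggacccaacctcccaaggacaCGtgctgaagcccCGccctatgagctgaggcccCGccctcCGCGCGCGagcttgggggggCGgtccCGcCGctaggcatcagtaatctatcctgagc
Parg: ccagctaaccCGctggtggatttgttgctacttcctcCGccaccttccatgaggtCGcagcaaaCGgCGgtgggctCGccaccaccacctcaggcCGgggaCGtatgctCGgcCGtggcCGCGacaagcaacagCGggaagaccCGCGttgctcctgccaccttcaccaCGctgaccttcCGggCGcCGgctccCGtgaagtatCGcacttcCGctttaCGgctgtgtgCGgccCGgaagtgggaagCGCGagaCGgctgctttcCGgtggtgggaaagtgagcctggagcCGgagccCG
Parp11 upstream: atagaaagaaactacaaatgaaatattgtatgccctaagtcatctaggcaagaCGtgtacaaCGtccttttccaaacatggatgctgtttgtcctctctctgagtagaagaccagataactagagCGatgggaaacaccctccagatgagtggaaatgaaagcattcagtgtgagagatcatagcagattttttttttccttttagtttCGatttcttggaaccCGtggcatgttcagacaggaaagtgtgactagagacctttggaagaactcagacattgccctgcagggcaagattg
Parp11 downstream: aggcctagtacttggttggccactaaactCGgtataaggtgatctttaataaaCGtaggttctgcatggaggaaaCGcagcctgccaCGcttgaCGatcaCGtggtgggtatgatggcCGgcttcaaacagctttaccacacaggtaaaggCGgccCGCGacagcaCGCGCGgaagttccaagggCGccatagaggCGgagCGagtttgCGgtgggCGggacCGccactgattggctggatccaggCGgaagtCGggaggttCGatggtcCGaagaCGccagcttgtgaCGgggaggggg

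In GENCODE vM21 on GRCm38, Parp1 spans chr1:180568924-180601254, Parg chr14:32201949-32297550 and Parp11 chr6:127446840-127494261, all on the + strand. Parp2 and Parp4 lie on chromosome 14 as well, Parp3, Parp6 and Parp16 on chromosome 9, Parp8 on chromosome 13 and Parp10 on chromosome 15. The Parp1 window holds 20 CpG and the Parg window 31, against a median of 7 over the 32851 windows of the same length in the table. Of all windows 73.5% hold fewer CpG than that of Parp1 and 89.4% fewer than that of Parg. The Parp11 starts differ: the upstream window, at the 5′ end of the annotated gene, holds 5 CpG and is 42.0% G+C, and the downstream window, 6787 bases further into the gene, holds 25 CpG and is 59.0% G+C. Windows were found for 9 of the 10 genes (all but Parp10), 11 in all, and ran from 5 CpG in the upstream Parp11 window to 37 CpG for Parp8. Short sequence motifs were searched on both strands. The GC box (GGGCGG), present in 35.7% of all windows, matched 4 times in Parp1, 3 times in Parp8, 1 time each in Parp2 and Parp4, and not in Parg. The E box (CACGTG), in 7.15% of windows, matched once in Parp1, at position -49, and once in Parp2, at position -179. The ETS motif (CCGGAAG), in 8.86% of windows, matched at 2 places in Parg, and the E2F motif TTCCCGC, in 4.6%, at 1 place there. A second E2F motif (TTGGCGC), in 2.45% of windows, matched in none of the 11. The core of the interferon-stimulated response element (GAAANNGAAA), in 3.44% of windows, matched at position -44 of the upstream Parp11 window and at 2 overlapping places in Parp4. The downstream Parp11 window held 1 GC box, 1 CCAAT box (in 37.4% of windows), 1 E box and 1 RUNX motif (TGTGGT, in 16.8%), while Parp6 held 2 GC boxes and 1 RUNX motif. These are matches of letters, and no binding or methylation was measured in the files used here.

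Levels of different genes were compared as FPKM, the authors' values per transcript length. In PBS knockdown mice Parp1 was the most abundant member at 69.9 FPKM, followed by Parp2 at 31.3 FPKM, with no overlap between their libraries (64.3 to 73.3 FPKM against 29.7 to 32.1 FPKM). Parp10 at 13.97 FPKM and Parg at 11.0 FPKM came next, and their libraries overlapped. Below them stood Parp4 at 7.07, Parp16 at 4.94, Parp11 at 2.69, Parp6 at 1.99 and Parp3 at 0.513 FPKM, each apart from its neighbours, and Parp8 was close to 0 at 0.0233 FPKM. The Parp2 level per length is less certain than the others, because the length behind its FPKM was 1807 bases and its exons in GENCODE vM21 cover 3628 bases.

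The order was not the same in the other groups. In restored mice Parp1 (27.3 and 44.0 FPKM) and Parp2 (20.6 and 28.4 FPKM) overlapped. In ascorbate mice Parp11 stood at 0.650 FPKM in both libraries, below Parp3 at 0.800 and 0.980 FPKM, and restored mouse 23 had the same order (0.800 against 0.990 FPKM). Parp11 stood above Parp3 in restored mouse 21, the primary mouse and every PBS knockdown mouse. In the primary mouse Parp10 (7.49 FPKM) ranked below Parg (13.98 FPKM) and Parp4 (8.49 FPKM). Parp1 made up 39.4% and 30.0% of the summed FPKM of the 10 genes in restored mice 21 and 23, 48.6% and 50.5% in ascorbate mice 28 and 30, 53.1% in the primary mouse, and 49.997%, 49.7% and 46.5% in PBS knockdown mice 16, 17 and 19. The restored mice thus had the 2 lowest shares.

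**Figure D1:**
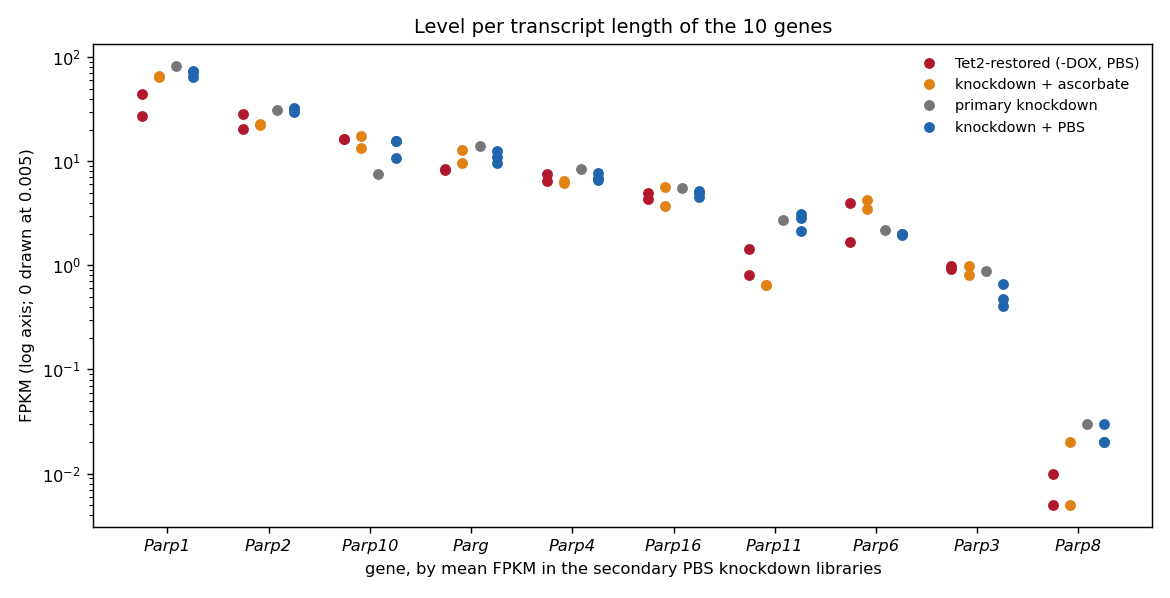
FPKM of each gene on a log axis, with 1 point per library coloured by group and genes ordered by their mean in the PBS knockdown libraries; values of 0 are drawn at 0.005. Parp1 is highest in every library and Parp8 lowest, and Parp11 falls below Parp3 in the ascorbate libraries (0.650 FPKM) and in restored mouse 23 (0.800 FPKM).

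Restored and ascorbate mice were each compared with PBS knockdown mice, and with each other, in 1 edgeR quasi-likelihood fit of the 7 secondary libraries (12137 genes tested, Benjamini-Hochberg adjusted p under 0.05). Of the 10 genes 9 were tested, and Parp8 was removed by the filter on low counts. Both comparisons with PBS knockdown use the same 3 mice. In restored against PBS knockdown mice 0 of the 9 members passed, as did 0% of all genes, while 3 of 9 (1 higher, 2 lower) had an unadjusted p under 0.05 against 29.2% of all genes, and DESeq2's Wald test called 2 members, Parp1 and Parp11, against 17.3% of all genes with an adjusted p. In ascorbate against PBS knockdown mice 1 of the 9 members passed, against 2.86% of all genes, and this was Parp11; 4 of 9 (2 higher, 2 lower) had an unadjusted p under 0.05, against 23.6%, and DESeq2's Wald test called 2, Parp11 and Parp6, against 12.5%. In restored against ascorbate mice 0 of 9 passed, against 0.00824% of all genes, with 2 of 9 at an unadjusted p under 0.05 against 16.2%, and DESeq2's Wald test called 1 member, Parp1, against 4.15%. The libraries of the groups did not overlap for 6 of 9 members (2 higher, 4 lower) in the restored comparison, 5 of 9 (2 higher, 3 lower) in the ascorbate comparison and 4 of 9 (2 higher, 2 lower) between restored and ascorbate mice. The shares over all genes were 49.4%, 45.9% and 44.8%. The median log2 fold change of the members was −0.06 in the restored comparison, −0.08 in the ascorbate comparison and 0.09 between restored and ascorbate mice, against −0.002, −0.012 and 0.014 over all genes.

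**Figure D2:**
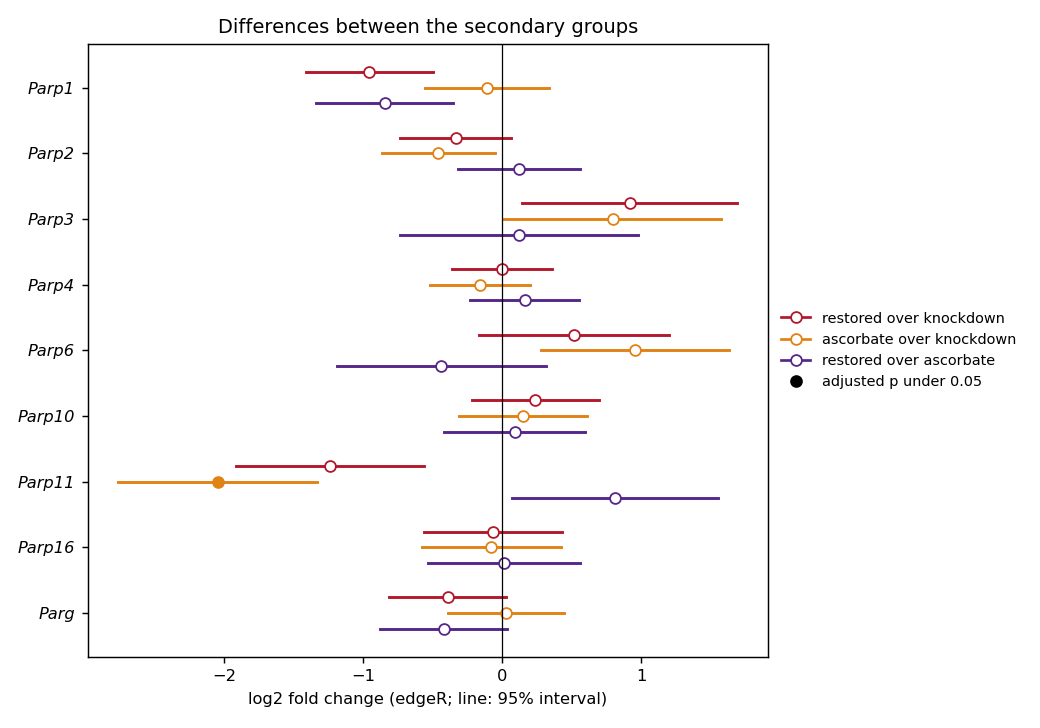
Log2 fold change of each tested gene in the 3 comparisons of the secondary groups, with lines for the 95% interval of the edgeR fit and filled points for an adjusted p under 0.05. The only filled point is Parp11 in ascorbate over PBS knockdown, at −2.05.

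Parp1, the main sensor of DNA breaks in the family and the main target of PARP inhibitors, had 240 and 146 CPM in restored mice 21 and 23, against 390, 387 and 343 CPM in PBS knockdown mice 16, 17 and 19. Both restored mice lay below every other library, and mouse 23 was the lower of them. The means were 193 ± 66.7 CPM in restored mice (SD, n = 2) and 373 ± 26.3 CPM in PBS knockdown mice (SD, n = 3). This is a log2 fold change of −0.95 (SE 0.20, 95% interval −1.41 to −0.50), and its edgeR adjusted p of 0.0520 missed the threshold. Without mouse 21 it was −1.35 (edgeR adjusted p 0.0137), with mouse 23 as the only restored library and its spread taken from the other groups, and without mouse 23 it was −0.64 (edgeR adjusted p 0.313). The sign was negative under all 15 alternatives, and 4 of them (DESeq2 size factors, no filter on low counts, DESeq2's Wald test and leaving out mouse 21) took it past the threshold.

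Parp1 in ascorbate mice 28 and 30 was 344 and 352 CPM, within the range of the PBS knockdown mice. Against PBS knockdown this gave −0.11 on the log2 scale (SE 0.20, edgeR adjusted p 0.762), with a 95% interval of −0.56 to 0.34. Restored over ascorbate mice, Parp1 differed by −0.84 on the log2 scale (SE 0.22, edgeR adjusted p 0.159), which did not pass although the libraries did not overlap. The primary mouse had 435 CPM, the highest value of the 8 and 0.22 above the PBS knockdown mean on the log2 scale.

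Cell cycle genes varied alongside Parp1 in these libraries. The summed level of 14 cell cycle genes (Mki67, Top2a, Pcna, Mcm2 to Mcm7, Ccna2, Ccnb1, Cdk1, Rrm2 and Tyms, all above 1 CPM in every group) was 5423 and 3547 CPM in restored mice 21 and 23, 4970 and 6445 CPM in ascorbate mice 28 and 30, 7559 CPM in the primary mouse, and 7040, 6633 and 5975 CPM in PBS knockdown mice 16, 17 and 19. Mouse 23 had the lowest sum and the lowest Parp1, and mouse 12 the highest of both. Mouse 28 had a lower sum than restored mouse 21 but a higher Parp1. Per 1000 CPM of these cell cycle genes, a measure chosen after the values had been seen, Parp1 stood at 44.3 and 41.1 CPM in restored mice, 69.2 and 54.6 CPM in ascorbate mice, 57.5 CPM in the primary mouse and 55.4, 58.3 and 57.4 CPM in PBS knockdown mice. The restored mice were the lowest on this scale, which depends on the genes summed, and these did not move alike. Rrm2 had 282 and 116 CPM in restored mice 21 and 23, against 420, 393 and 348 CPM in PBS knockdown mice 16, 17 and 19. Cdk1 had 148 and 98.0 CPM in those restored mice, against 123, 133 and 136 CPM. The part of proliferation in the Parp1 difference was not tested.

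**Figure D3:**
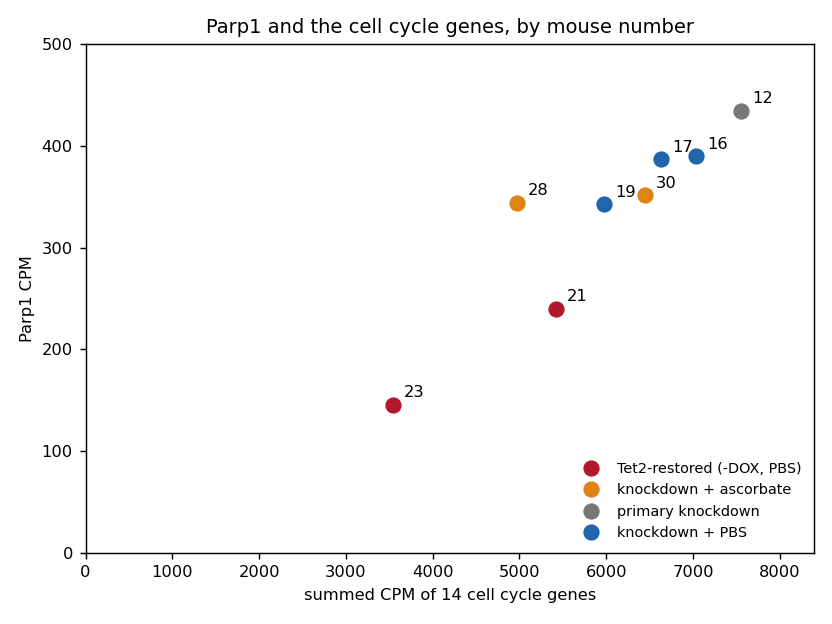
Parp1 in CPM against the summed CPM of 14 cell cycle genes, with 1 point per library labelled by mouse number and coloured by group; both axes start at 0. Mice 23 and 21 have the lowest Parp1 (146 and 240 CPM), and mouse 28 lies left of mouse 21 but higher (344 CPM).

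Parp2, the closest relative of Parp1 and its partner at DNA breaks, had 52.3 and 37.2 CPM in restored mice 21 and 23, 41.7 and 40.9 CPM in ascorbate mice 28 and 30, and 57.4, 58.2 and 53.5 CPM in PBS knockdown mice 16, 17 and 19. All 4 restored and ascorbate mice lay below the PBS knockdown range, mouse 21 by little, and the primary mouse was within it at 55.9 CPM. Neither difference from PBS knockdown passed, with log2 fold changes of −0.33 in restored mice (SE 0.18, edgeR adjusted p 0.241) and −0.46 in ascorbate mice (SE 0.18, edgeR adjusted p 0.166). The restored value was −0.59 without mouse 21 and −0.12 without mouse 23. Relative to Parp2, Parp1 in FPKM was 1.55 and 1.32 times as high in restored mice, 2.78 and 2.91 times in ascorbate mice, 2.62 times in the primary mouse and 2.29, 2.25 and 2.17 times in PBS knockdown mice. The 3 secondary groups did not overlap on this ratio, which was lowest in restored and highest in ascorbate mice.

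Parp3, which is activated by DNA ends and acts in end joining, was a low-level gene at 37 to 116 counts per library. It had 3.55 and 3.69 CPM in restored mice, 2.99 and 3.68 CPM in ascorbate mice and 1.73, 1.52 and 2.47 CPM in PBS knockdown mice. Every restored and ascorbate mouse exceeded the PBS knockdown mice, and so did the primary mouse at 3.30 CPM. On the log2 scale the difference was 0.92 in restored mice (SE 0.35, edgeR adjusted p 0.120) and 0.80 in ascorbate mice (SE 0.35, edgeR adjusted p 0.204), and neither passed. The 3 PBS knockdown mice were the lowest of the 8 libraries, and the cause was not tested.

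Parg, the glycohydrolase that removes poly(ADP-ribose), had 49.7 and 48.4 CPM in restored mice 21 and 23, 56.8 and 74.8 CPM in ascorbate mice 28 and 30, and 72.3, 55.8 and 64.5 CPM in PBS knockdown mice 16, 17 and 19. The restored mice were the 2 lowest libraries, the ascorbate mice overlapped the PBS knockdown range, with mouse 30 above it, and the primary mouse was highest at 80.4 CPM. Parg did not pass in either group, at a log2 fold change of −0.39 in restored mice (SE 0.19, edgeR adjusted p 0.195) and 0.03 in ascorbate mice (SE 0.19, edgeR adjusted p 0.943, 95% interval −0.39 to 0.44). The ratio of Parp1 to Parg in FPKM was 5.28 and 3.29 in restored mice, 6.62 and 5.13 in ascorbate mice, 5.90 in the primary mouse and 5.89, 7.57 and 5.80 in PBS knockdown mice. It is a ratio of RNA levels, and no protein or poly(ADP-ribose) was measured in the files used here. Mouse 23 stood apart with the lowest ratio, and restored mouse 21 lay within the range of the ascorbate mice.

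Parp11 is a mono-ADP-ribosyltransferase of the nuclear envelope needed for sperm head formation in mouse. It was the only member to pass in the edgeR fit as reported, lower in ascorbate than in PBS knockdown mice. It had 4.64 CPM in each of ascorbate mice 28 and 30 (76 and 111 counts), against 19.9, 15.2 and 22.1 CPM in PBS knockdown mice 16, 17 and 19 (493, 369 and 617 counts). The ascorbate mice were the lowest of the 8 libraries and lay 3-fold or more below each PBS knockdown mouse. Its log2 fold change in ascorbate over PBS knockdown mice was −2.05 (SE 0.32, 95% interval −2.76 to −1.33, edgeR adjusted p 0.0261). The call was lost without mouse 28 or mouse 30 (edgeR adjusted p 0.133 and 0.126) and without mouse 16 or 19 (edgeR adjusted p 0.0976 and 0.0710), while the log2 fold change stayed between −2.19 and −1.93 whichever of the 7 libraries was left out. On log2(FPKM + 1), where the added 1 shrinks differences of low genes, it was −1.15 (limma adjusted p 0.0347).

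Restored mice 21 and 23 had 10.5 and 5.66 CPM of Parp11, also below every PBS knockdown mouse and above both ascorbate mice. Over PBS knockdown this was −1.24 on the log2 scale (SE 0.30, edgeR adjusted p 0.0562). With 1 restored library left, Parp11 stood at −1.75 without mouse 21 and −0.87 without mouse 23. Restored over ascorbate it was 0.81 (SE 0.33, edgeR adjusted p 0.273), so the restored and ascorbate mice were not separated by the test. The primary mouse, at 19.3 CPM, lay within the PBS knockdown range.

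Several PARP genes respond to interferon, so interferon genes and macrophage markers were read beside Parp11. The 12 interferon-response genes summed to 1524 and 1320 CPM in restored mice 21 and 23, 1462 and 733 CPM in ascorbate mice 28 and 30, 211 CPM in the primary mouse and 1215, 1610 and 2140 CPM in PBS knockdown mice 16, 17 and 19. Beside these sums, Parp11 stood at 4.64 CPM in each of ascorbate mice 28 and 30 and at 19.3 CPM in the primary mouse, a single library. The 6 macrophage markers summed to 16.8 and 6.67 CPM in restored mice 21 and 23, 14.97 and 14.3 CPM in ascorbate mice 28 and 30, 14.7 CPM in the primary mouse and 27.6, 44.0 and 51.7 CPM in PBS knockdown mice 16, 17 and 19, with none of the 6 at 0 in any group. The part of the interferon response or of macrophages in the Parp11 difference was not tested.

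Parp10, a mono-ADP-ribosyltransferase first found as a MYC-interacting protein, had 71.4 and 70.7 CPM in restored mice, 76.0 and 58.5 CPM in ascorbate mice and 45.7, 67.9 and 67.0 CPM in PBS knockdown mice. Neither difference passed, at a log2 fold change of 0.24 (SE 0.20, edgeR adjusted p 0.458) and 0.15 (SE 0.21, edgeR adjusted p 0.681). Its lowest value was in the primary mouse, a single library, at 31.9 CPM or −0.91 on the log2 scale relative to the PBS knockdown mean. The interferon sum was 211 CPM in that mouse. It was 733 CPM in ascorbate mouse 30 (Parp10 58.5 CPM) and 1215 CPM in PBS knockdown mouse 16 (Parp10 45.7 CPM). The part of the interferon response in the Parp10 level was not tested. Of the exonic bases of Parp10 205 (4.8%) are shared with Plec on the same strand.

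Parp6 had 13.5 and 31.2 CPM in restored mice 21 and 23, 33.3 and 27.6 CPM in ascorbate mice 28 and 30, and 15.7, 15.4 and 15.7 CPM in PBS knockdown mice 16, 17 and 19. This mono-ADP-ribosyltransferase, known from dendrite growth in rat neurons, was tightly grouped in the PBS knockdown mice, at a similar 16.8 CPM in the primary mouse, and higher in both ascorbate mice, while the restored mice lay on either side. Ascorbate over PBS knockdown, Parp6 stood at 0.96 on the log2 scale (SE 0.30, edgeR adjusted p 0.108), and this passed when the restored mice were left out of the fit (edgeR adjusted p 0.0206), when mouse 21 or 23 alone was left out, without the filter on low counts and with DESeq2's Wald test. In restored mice it was 0.52 (SE 0.30, edgeR adjusted p 0.283). With 1 restored library left, Parp6 stood at 1.01 without mouse 21 and −0.22 without mouse 23, so its direction rested on mouse 23.

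Parp4 and Parp16 varied little. Parp4, the PARP of the vault particle, had 43.6 and 49.7 CPM in restored mice, 40.6 and 43.2 CPM in ascorbate mice, 55.2 CPM in the primary mouse and 50.4, 43.6 and 45.7 CPM in PBS knockdown mice. Its log2 fold change was 0.00 (SE 0.16, 95% interval −0.36 to 0.36) in restored mice, with a sign that changed with the setting, and −0.16 (SE 0.16, edgeR adjusted p 0.563) in ascorbate mice. Of its exonic bases 335 (5.13%) overlap an antisense gene, and whether the counting used strand is not given in the sources used here. Parp16, a tail-anchored enzyme of the endoplasmic reticulum that acts in the unfolded protein response, had 17.5 and 19.6 CPM in restored mice, 22.4 and 14.6 CPM in ascorbate mice, 21.4 CPM in the primary mouse and 20.4, 18.03 and 19.6 CPM in PBS knockdown mice. The groups overlapped, and its log2 fold change was −0.06 (SE 0.22) in restored and −0.08 (SE 0.22) in ascorbate mice. The 95% intervals were −0.56 to 0.43 in restored and −0.57 to 0.42 in ascorbate mice.

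Parp8 was near the detection limit, with 2 and 0 counts in restored mice 21 and 23, 3 and 1 in ascorbate mice 28 and 30, 9 in the primary mouse and 5, 5 and 8 in PBS knockdown mice 16, 17 and 19. The limit that a count of 0 allows in mouse 23, taken as 3 counts, is 0.152 CPM, and intervals and limits of this kind cover counting error only. All groups but the restored one had a count in each library, and no fold change is given.

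**Figure D4:**
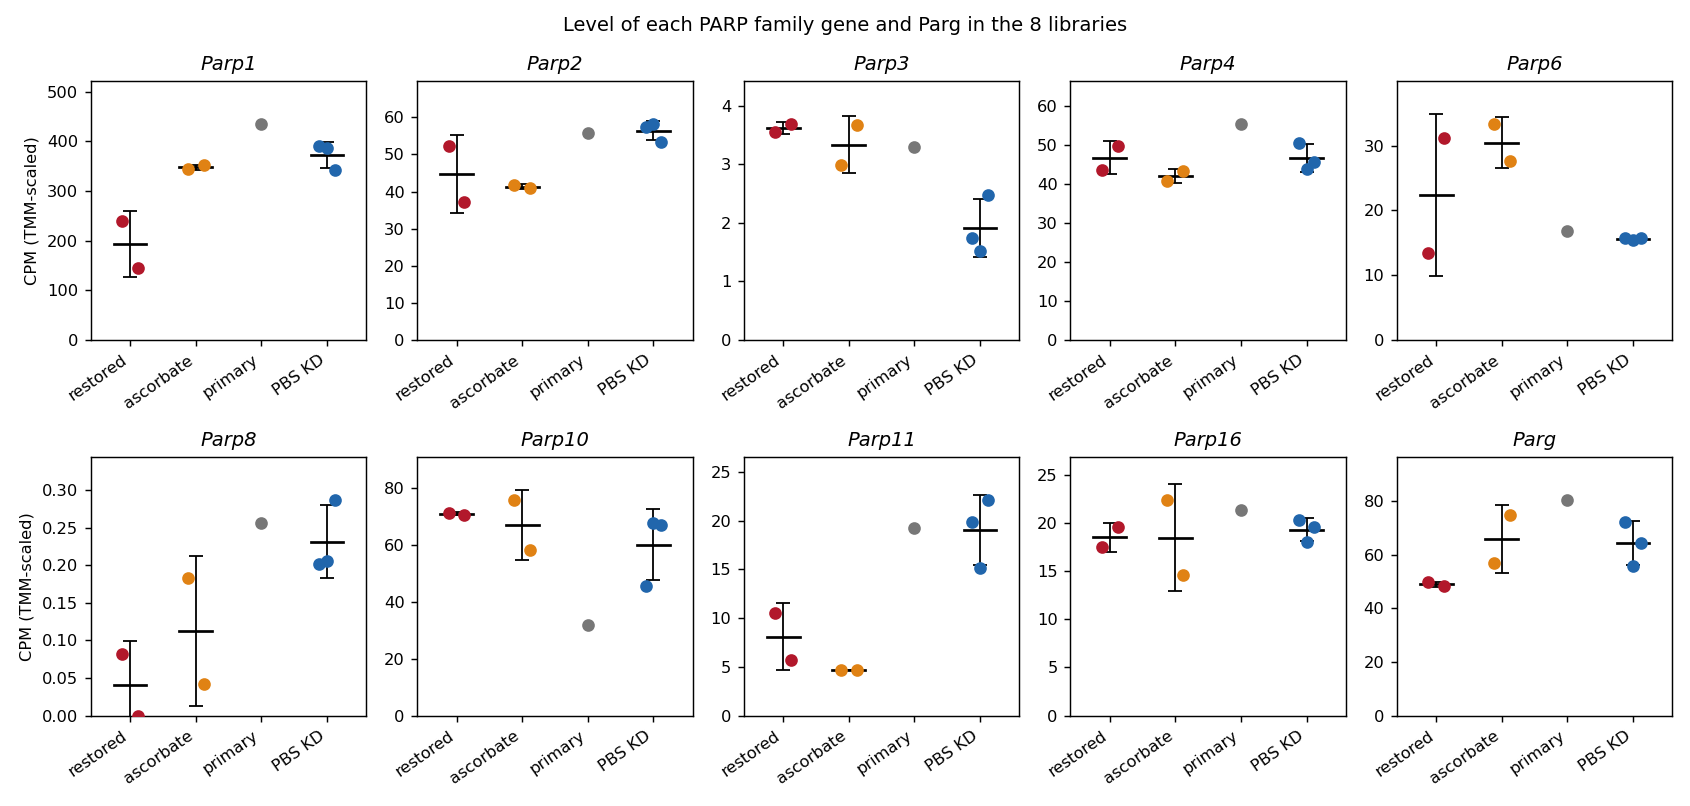
TMM-scaled CPM of each gene, with 1 point per library by group (restored, ascorbate, primary, PBS knockdown); bars are means with SD where a group has more than 1 library, and each axis starts at 0. Parp1 is lowest in the restored libraries (240 and 146 CPM), Parp11 is lowest in the ascorbate libraries (4.64 CPM in both), and Parp6 separates the restored libraries (13.5 and 31.2 CPM).

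In the primary mouse no member differed from the PBS knockdown mean by 2-fold or more, as 5.05% of genes did. Parp1, Parp3, Parp4, Parp6, Parp16 and Parg were above the range of the 3 PBS knockdown mice, Parp10 was below it, and Parp2, Parp8 and Parp11 were within it. The share of all genes outside that range was not counted, so these positions are not read as a trait of the members. Of the members, Parp10 (−0.91) and Parp3 (0.66) lay farthest from the PBS knockdown mean on the log2 scale. Interferon genes were lower and mast cell and basophil genes higher in this mouse than in the PBS knockdown mice, as given above. Their part in the levels of the members was not tested.

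The wider ADP-ribosylation machinery was read from a list of 28 other genes, all of which were tested. In restored against PBS knockdown mice 0 of 28 passed, as did 0% of all genes. An unadjusted p under 0.05 was found for 11 of 28 (4 higher, 7 lower), against 29.2% of all genes. The smallest p belonged to Nudt16, which hydrolyses ADP-ribose on proteins, at 38.2 CPM in restored mice and 13.9 CPM in PBS knockdown mice on average (log2 fold change 1.46, SE 0.25, edgeR adjusted p 0.0502). The tankyrase gene Tnks2 followed (−0.78, SE 0.22, edgeR adjusted p 0.0669), then the DNA end-processing gene Aptx (0.73, SE 0.22, edgeR adjusted p 0.0780) and the interferon-responsive family member Parp14 (−0.61, SE 0.19, edgeR adjusted p 0.0802). Of the 7 other PARP family genes, 5 had negative and 2 positive estimates in restored mice, against 6087 negative and 6050 positive over all genes. In ascorbate mice 6 of the 7 were negative and 1 positive, against 6191 negative and 5946 positive over all genes.

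In ascorbate against PBS knockdown mice 1 of the 28 genes passed, against 2.86% of all genes. Parp12, an interferon-stimulated mono-ADP-ribosyltransferase, fell to 37.9 and 26.2 CPM in ascorbate mice 28 and 30, against 65.9, 63.2 and 88.2 CPM in PBS knockdown mice 16, 17 and 19 (log2 fold change −1.19, SE 0.22, edgeR adjusted p 0.0338). The call was lost when any of the 5 ascorbate and PBS knockdown mice was left out (edgeR adjusted p from 0.0518 without mouse 17 to 0.145 without mouse 30). Parp12 stood at 15.3 CPM in the primary mouse. Interferon sums were 211 CPM in that mouse, 1462 and 733 CPM in ascorbate mice 28 and 30, and 1215 to 2140 CPM in PBS knockdown mice. The part of the interferon response in the Parp12 difference was not tested. Lig3, the ligase that seals breaks after PARP1 and XRCC1 have acted, was next (−0.78, SE 0.20, edgeR adjusted p 0.0683). Of its exonic bases 25.1% overlap Rffl on the other strand. Nmnat1, a nuclear enzyme of NAD+ synthesis (−0.74, SE 0.24, edgeR adjusted p 0.117), and the hydrolase Macrod1 (0.55, SE 0.22, edgeR adjusted p 0.178) followed. Between restored and ascorbate mice 0 of 28 passed, against 0.00824% of all genes. The smallest p there belonged to Nudt16 (1.17, SE 0.29, edgeR adjusted p 0.150), Aptx (0.99, SE 0.25, edgeR adjusted p 0.154), Zc3hav1 (−0.71, SE 0.23, edgeR adjusted p 0.208) and Parp12 (0.65, SE 0.23, edgeR adjusted p 0.233).

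The likeness of other genes to Parp1 and Parg was described by Pearson's r of log2(CPM + 0.5) over the 8 libraries. It was taken among 8511 tested genes with a mean of at least 5 CPM, leaving out predicted, clone-named and mitochondrially encoded genes. The 5 genes closest to Parp1 were Nfkb1 (r = 0.990), Gtf2i (0.987), Gls2 (0.983), Pitrm1 (0.982) and Trap1 (0.980). The 5 closest to Parg were Tnpo1 (r = 0.990), Wdfy3 (0.989), Ppp4r3b (0.985), St13 (0.985) and Dido1 (0.982). Parp1 and Parg themselves had r = 0.76, and Parp1 and Parp2 r = 0.63. The libraries fall into groups that share treatment, and they differ in depth and mitochondrial share within and between groups. These values therefore only describe how levels varied together over the 8 libraries.

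**Figure D5:**
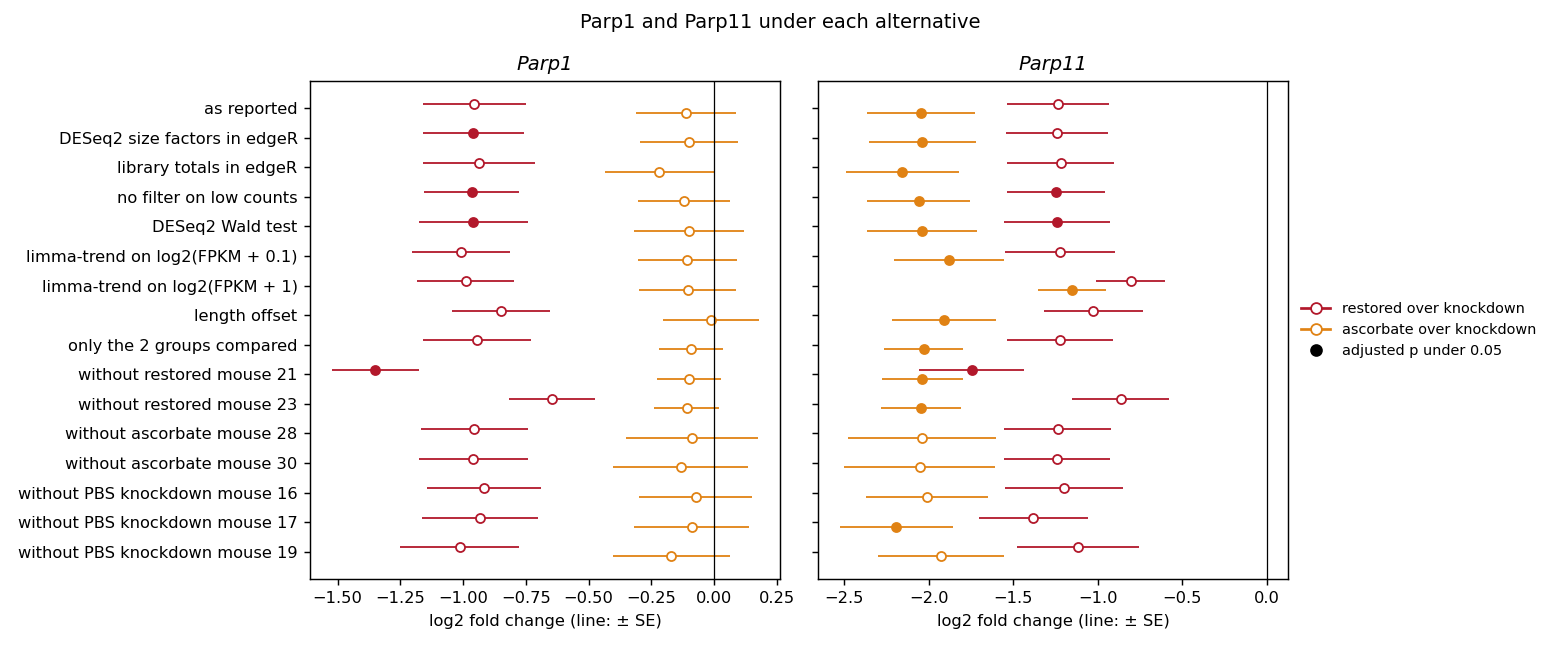
Log2 fold change of Parp1 (left) and Parp11 (right) over PBS knockdown in restored and ascorbate mice as reported and under each of 15 alternatives, with lines for the SE and filled points for an adjusted p under 0.05. Parp1 in restored mice runs from −0.64 without mouse 23 to −1.35 without mouse 21, and Parp11 in ascorbate mice from −1.15 to −2.19.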

How the data were processed

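Oligo-dT libraries (NEXTflex kit) were made from total RNA of AE9a+ spleen cells, per the labels' protocols. The submitters' processing notes name STAR, featureCounts, DESeq2 and the builds mm10 and GRCm38. Their versions, the order of the steps, the annotation and the strand setting are not given in the sources used here. The authors deposited raw read counts per gene symbol and FPKM values (counts scaled by transcript length and library size, by the authors) for the same 52459 symbols and 8 libraries; 26 symbols had been turned into date-like text, 2 were repeated, and 91.7% were found in GENCODE vM21.

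Counts were fitted with edgeR 4.0.16 (TMM factors, filterByExpr with a minimum count of 10, robust quasi-likelihood test) on the 7 secondary libraries in 3 groups, with Benjamini-Hochberg adjustment over all 12137 genes tested. SE is the log2 fold change divided by the root of F. CPM values use TMM factors over all 8 libraries. Alternatives used limma 3.58.1 on log2(FPKM + 0.1) and log2(FPKM + 1), DESeq2 1.42.0, other scalings, a length offset, no filter, only the groups compared, and each library left out. Tests were checked on simulated counts without length bias. The pass mark was set only at a spread smaller than that of these libraries, so it does not show how the tests behave here. Mice of a group differed by 36.1 to 92.1 chi-square per degree of freedom, far more than counting noise, so each was used as its own replicate. No symbol row lacked a gene name and no column was left unused. All 10 members, Tet2, the genes of smallest p in the wider list (up to 4 per comparison) and the 5 most similar to Parp1 and Parg are named. Members and lists were chosen with earlier results of these data known. Coordinates and exon overlaps are from GENCODE vM21 on GRCm38.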

Additional observations from a re-analysis of the deposited data

How the results depend on the processing

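The limits are the 2 restored and 2 ascorbate mice, a common biological coefficient of variation of 0.228, and Tet2 in mouse 21. Of 42 gene-level results, 18 values with a library left out and 9 under other settings reversed their sign, all of them differences that did not pass. No paired analysis was possible because the groups compared share no mouse numbers. Library totals in place of TMM shifted the median log2 fold change of all genes by −0.11 in the ascorbate comparison and 0.12 between restored and ascorbate mice. Of the genes called in the ascorbate comparison 38.0% were higher (132 higher, 215 lower), against 21.7% with library totals. Relative length bias also differed between libraries (rho with gene length from −0.46 in mouse 21 to 0.37 in mouse 16), and a length offset gave 47.6% higher.

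In the restored comparison 0 genes and 0 members passed as reported. DESeq2 size factors gave 367 genes and 1 member, no filter 2207 and 2, DESeq2's Wald test 1933 and 2, and leaving out each library 0 to 1692 genes and 0 to 3 members, the highest without mouse 21. In the ascorbate comparison 347 genes and 1 member passed. No filter gave 1498 and 2, DESeq2's Wald test 1339 and 2, and only the 2 groups 855 and 2. Leaving out each library gave 2 genes (without mouse 28) to 796 genes (without mouse 21) and 0 to 2 members; the genes numbered 763 with mouse 23 left out, 87 with mouse 17, 15 with mouse 19, 7 with mouse 30 and 5 with mouse 16 left out. Between restored and ascorbate mice 1 gene and 0 members passed. No filter gave 582 and 1, DESeq2's Wald test 445 and 1, FPKM + 0.1, FPKM + 1 and the length offset 3 genes each, only the 2 groups 0, and leaving out each library 0 to 5 genes. The causes were not tested.

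Parp4 in restored mice (0.00066 as reported) was −0.0014 with DESeq2 size factors, −0.014 with no filter, −0.0016 with DESeq2's Wald test, −0.014 with FPKM + 0.1 and −0.012 with FPKM + 1. Parg in ascorbate mice was −0.076 with library totals, and Tet2 in ascorbate mice 0.17 with the length offset. Parp16 between restored and ascorbate mice was −0.00013 with DESeq2 size factors and −0.027 with the length offset. With each library left out, log2 fold changes in the restored comparison ran from −0.10 to 0.099 for Parp4, −0.22 to 1.01 for Parp6, −0.15 to 0.025 for Parp16. Those of the ascorbate comparison ran from −0.045 to 0.32 for Parp10, −0.41 to 0.20 for Parp16, −0.19 to 0.22 for Parg, −0.15 to 0.072 for Tet2, and those between restored and ascorbate mice from −0.14 to 0.34 for Parp2, −0.025 to 0.28 for Parp3, −1.17 to 0.042 for Parp6, −0.085 to 0.28 for Parp10, −0.26 to 0.35 for Parp16.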
